A study of Lentinus tigrinus with 27 samples.

Results

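The gills (lamellae) of mature fruiting bodies of the wood-decay mushroom Lentinus tigrinus were compared with the cap that carries them. The comparison rests on 6 of the 27 polyA RNA libraries of a developmental series, the 3 labelled fruiting body lamellae (FB_lamellae, replicates 1 to 3) and the 3 labelled fruiting body cap (FB_cap, replicates 1 to 3), chosen by their titles. All came from 1 strain, RLP-9953-sp, fruited on wheat bran and aspen sawdust, first for 21 days in darkness at 30 °C and then at 25 °C under daily cycles of 12 h light and 12 h dark. Fruiting bodies stood 50 to 70 mm tall with the cap flattened but not yet funnel-shaped. The remaining libraries, 3 per group, are vegetative mycelium (VM), stage 1 primordium (P1), cap and stipe of the stage 2 primordium (P2_cap, P2_stipe) and of the young fruiting body (YFB_cap, YFB_stipe), and the mature stipe (FB_stipe). The labels call the libraries of a group biological replicates. They do not say whether a library holds 1 or several fruiting bodies, whether cap and lamellae came from the same ones, or whether gill tissue was removed from the cap samples. Test p-values therefore measure only the spread between libraries, which the main test pooled over all 27.

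Gills bear the hymenium, the layer of basidia in which nuclei fuse, undergo meiosis and form the basidiospores that are shed below the cap. The flesh of the cap is largely a sterile mesh of hyphae that supports the gills and holds them over open air. A young cap already contains the gill initials, and the young fruiting bodies of this series had gills that were only just visible. Because these are bulk samples, fewer cells of a type and less RNA per cell cannot be told apart in any value below. The labelled tissues could not be checked against marker genes, because the gene identifiers of the files carry no names or functions.

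Reads assigned to genes numbered 11429575, 15276560 and 20009780 in FB_cap replicates 1, 2 and 3 and 17286894, 10841296 and 11241628 in FB_lamellae replicates 1, 2 and 3, so the groups overlapped in depth. About equal numbers of genes were detected, 12477 ± 200 in FB_cap and 12522 ± 131 in FB_lamellae at a CPM (reads scaled to the size of the library) of 1 or more (SD, n = 3 each, exact permutation p = 0.8). Of 15581 gene models, 13569 had enough reads to be tested. No gene had 10 or more reads in each library of one tissue and none in the 3 libraries of the other. Libraries were sequenced on several flowcells. FB_lamellae replicate 2 shared a flowcell with FB_cap replicate 1, and FB_lamellae replicate 1 shared another with FB_cap replicate 2 and with VM replicates 1 and 2. FB_cap replicate 3 and FB_lamellae replicate 3 shared none with the other tissue.

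Reads were more concentrated on a few very abundant transcripts in the cap than in the lamellae. The 10 most abundant genes of each library took 11.9%, 10.1% and 9.13% of all gene reads in FB_cap replicates 1, 2 and 3. In FB_lamellae replicates 1, 2 and 3 they took 3.94%, 5.81% and 3.95%. Every cap library lay above every lamellae library, with means of 10.4 ± 1.43% and 4.56 ± 1.08% (SD, n = 3 each, exact two-sided permutation p = 0.1, the smallest that 3 against 3 can give). The single most abundant gene held 2.56 ± 0.467% of reads in the cap and 0.842 ± 0.145% in the lamellae (SD, n = 3 each). The same order held for the 100 most abundant genes, with 24.3 ± 2.02% against 17.3 ± 1.41%, and for the 1000 most abundant, with 57.2 ± 1.17% against 52.1 ± 0.916% (SD, n = 3 each, exact permutation p = 0.1 for both).

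Many of the dominant transcripts were shared, at other levels. Of the 10 genes with the highest mean share of reads in each tissue, 5 were the same. Of the 100 highest by mean TPM, a measure that also corrects for gene length, 72 were the same. By the test described below, 14 of those 100 in the cap were called lower in lamellae, and of those 100 in the lamellae 2 were called higher and 5 lower.

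Between the 2 tissues a minority of genes was called different, and these were more often lower in the lamellae. With edgeR's quasi-likelihood test on all 27 libraries, 327 of 13569 genes (2.41%) were called different, by the rule of a fold of at least 2 with an adjusted p below 0.05. Of these, 253 genes (1.86% of those tested) were lower and 74 (0.545%) were higher in FB_lamellae. The median log2 fold change over all tested genes was -0.01, and 49% of genes were above 0. Scaling between libraries centres most genes near 0, so these values do not measure how close the tissues were. In the estimate 11.9% of genes differed by more than 2-fold, and 2655 (19.6%) had an edgeR p below 0.05 before adjustment.

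The lower genes also differed by more than the higher ones, as the plot of fold change against level shows. Past 4-fold stood 119 genes (0.877%), 100 of them lower and 19 higher in the lamellae. Of the lower genes 153 lay between 2-fold and 4-fold, 63 between 4-fold and 8-fold, 23 between 8-fold and 16-fold, and 14 beyond. No higher gene was beyond 16-fold. Single cap libraries set the steepest differences. In 9 of these 14 genes the highest cap library was at least 4 times the next, and in 11 of them that library was FB_cap replicate 3.

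**Figure D1:**
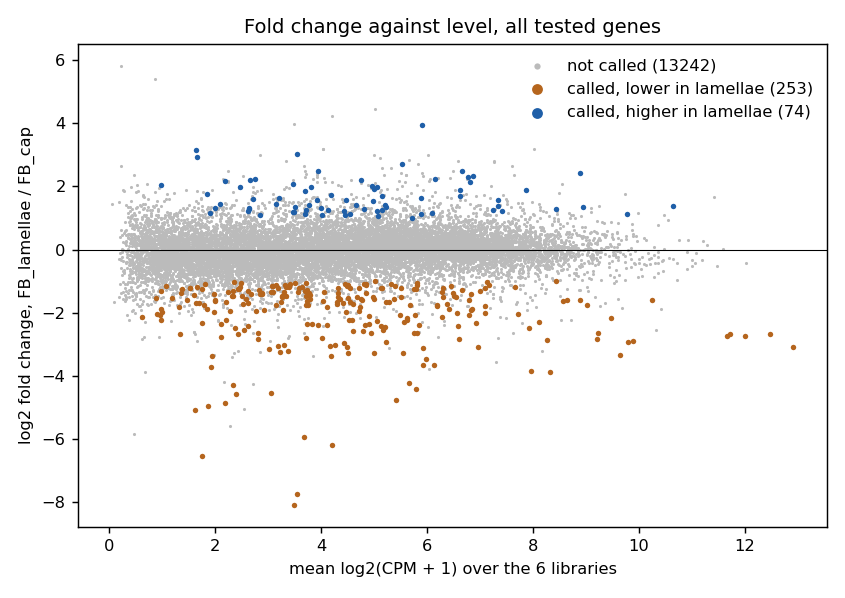
Log2 fold change of FB_lamellae over FB_cap (vertical) against the mean log2(CPM + 1) of the 6 libraries (horizontal) for each of 13569 tested genes, with the 253 lower and 74 higher calls in colour. The called lower genes reach the highest levels on the right and the largest differences at the bottom.

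These calls rest on a spread estimated from all 9 groups, and cap and lamellae were the most variable of them. Between the 3 libraries of a group, the SD of log2(CPM + 1) had a median over 12810 genes of 0.39 in FB_cap and 0.38 in FB_lamellae, against 0.20 to 0.33 in the other groups. When only the 6 libraries were fitted, edgeR made 0 calls, and 992 of 13016 genes (7.62%) had a p below 0.05 before adjustment. In the same libraries limma-voom also made 0 calls, with 862 genes (6.62%) below that p, and DESeq2 made 88, of which 78 were lower. With limma-voom on all libraries and a weight per group that lowers the influence of variable groups, 22 genes were called, 20 lower and 2 higher. Of the 327 genes 324 were tested in edgeR's fit of the 6 libraries, where all 324 had the same direction and their log2 fold changes differed from those above by at most 0.04.

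The count also depended on single libraries. Without FB_lamellae replicate 3 it was 38 (12 higher, 26 lower), and 32 of the 327 calls were among them. Without FB_lamellae replicate 2 it was 702 (259 higher, 443 lower), and without FB_cap replicate 2 it was 598 (240 higher, 358 lower). Without FB_cap replicate 1, 15 genes were called higher. Without FB_cap replicate 3 and without FB_lamellae replicate 1, 147 and 167 genes were called lower. With a term for flowcell there were 194 calls, 162 of them among the 327, and the flowcells that held both tissues, taken alone with that term, gave 67.

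The libraries of the same tissue were no closer to one another than to those of the other tissue. The root mean square difference of log2(CPM + 1) between libraries ranged from 0.764 to 1.09 over the 6 pairs within a tissue, with a median of 0.95. Over the 9 pairs between tissues it ranged from 0.729 to 1.39, with a median of 0.935. The closest of all 15 pairs was FB_cap replicate 2 with FB_lamellae replicate 2, and the farthest was FB_cap replicate 2 with FB_lamellae replicate 3. FB_cap replicate 1 lay closer to FB_lamellae replicate 2, with which it shared a flowcell, at 0.758, than to FB_cap replicate 3 at 0.793 or FB_cap replicate 2 at 0.899.

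**Figure D2:**
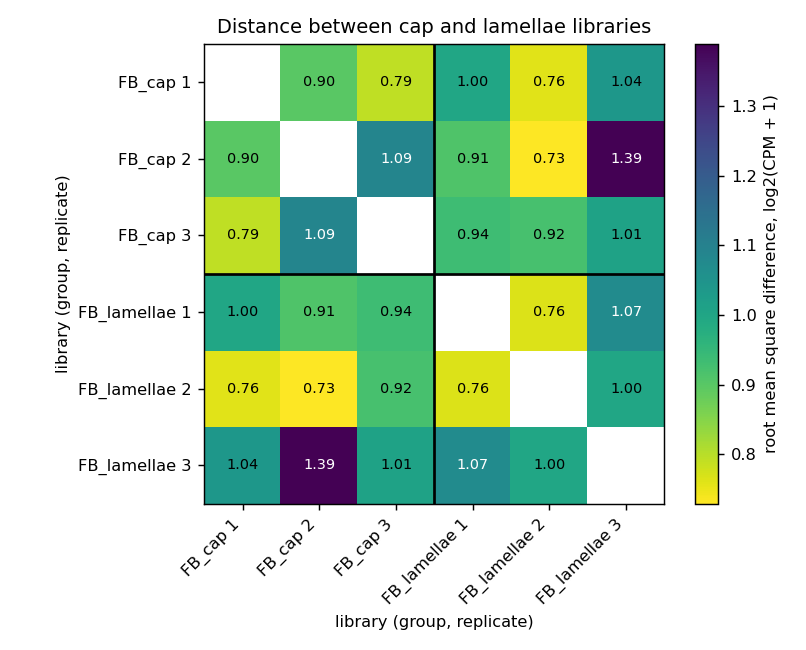
Root mean square difference of log2(CPM + 1) over 12810 genes between each pair of the 6 libraries, with lines dividing cap from lamellae. The blocks on and off the diagonal overlap in range, and FB_lamellae replicate 3 against FB_cap replicate 2 has the highest value, 1.39.

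Within each tissue a minority of genes spanned at least a 4-fold range over the 3 libraries, 1045 genes (8.16%) in FB_cap and 1079 (8.42%) in FB_lamellae, against 0.773% to 4.47% of genes in the other groups. Both tissues shared 485 of these genes, 46.4% of the cap's and 44.9% of the lamellae's. In the cap, replicate 2 was the library farthest from the other two in 524 of them (50.1%) and replicate 3 in 406 (38.9%). In the lamellae, replicate 3 was farthest in 567 (52.5%), and in 437 of those it was the low one. FB_lamellae replicate 3 was also the farthest of the 6 from the mean of VM, at 1.40 against 0.989 to 1.15, and with FB_cap replicate 1 the closest to YFB_cap, at 0.777 and 0.778.

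Of the 327 called genes, 277 had libraries of one tissue all above those of the other. Such separation held in 587 of all tested genes upward (4.33%) and 1170 downward (8.62%), and in 56 of the 74 higher and 221 of the 253 lower calls. The difference of the means exceeded the wider of both within-tissue ranges in 167 of the lower calls (66%) but in 23 of the higher calls (31.1%), against 6% of tested genes. The calls were chosen on these same libraries, so more separation among them than among all tested genes follows from the choice. The higher genes varied most within the lamellae themselves, with a median SD of 0.77 there and 0.48 in the cap. The lower genes had 0.43 and 0.57 (SD of log2(CPM + 1), n = 3 each).

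Within the flowcells that held both tissues the called genes kept their direction. On the flowcell of FB_lamellae replicate 2 and FB_cap replicate 1, the 74 higher genes differed by a median of 1.23 and the 253 lower genes by -1.12 in log2(CPM + 1). On that of FB_lamellae replicate 1 and FB_cap replicate 2 the medians were 1.23 and -1.20. Of the higher genes 72 were above 0 on both flowcells, and of the lower genes 240 were below 0 on both. The same libraries entered the calls, so these counts are a description.

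Over all tested genes the flowcells shared far less, since 51.8% of genes had the same sign on both. On the flowcell of FB_cap replicate 1, 955 genes were at least 2-fold higher in lamellae and 499 at least 2-fold lower. On that of FB_cap replicate 2 there were 1217 and 1121. The excess of lower genes among the calls was thus not seen in these counts over all tested genes. At least 2-fold higher on both were 177 genes and at least 2-fold lower on both 164. In opposite directions by at least 2-fold were 162 genes that were higher in lamellae on the flowcell of FB_cap replicate 1 and lower on that of FB_cap replicate 2, and 42 the other way.

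**Figure D3:**
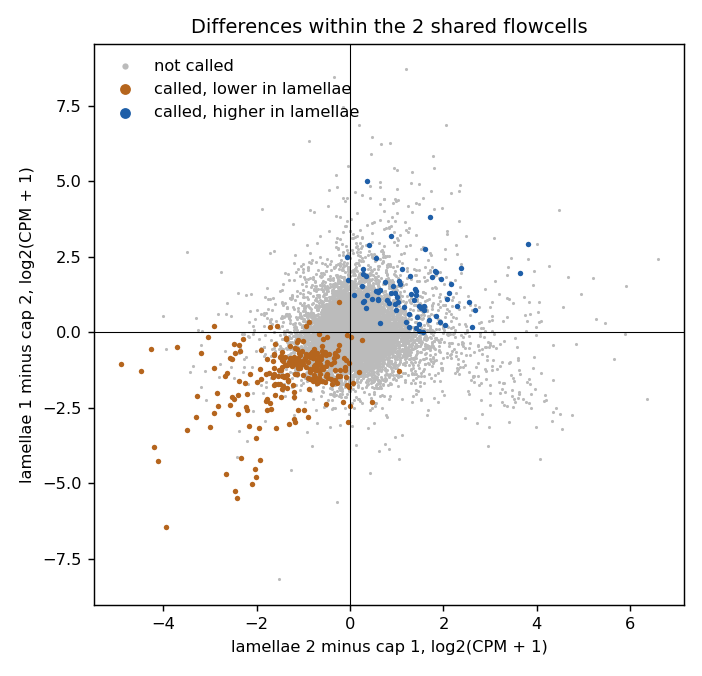
Difference of lamellae minus cap in log2(CPM + 1) for each tested gene on the flowcell of FB_lamellae replicate 2 and FB_cap replicate 1 (horizontal) and on that of FB_lamellae replicate 1 and FB_cap replicate 2 (vertical). Most of the coloured calls lie at the upper right and lower left, while an arm of grey, uncalled genes extends to the lower right.

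The genes that were lower in the lamellae included 5 of the 10 most abundant transcripts of the cap. Together the 253 lower genes held 13.4%, 9.87% and 11.4% of reads in FB_cap replicates 1, 2 and 3, and 1.15%, 3.86% and 1.14% in FB_lamellae replicates 1, 2 and 3. Most of that came from 13 genes with at least 1000 CPM in the cap, which alone held 11.3%, 8.16% and 8.44% of the cap reads and 0.61%, 3.14% and 0.673% of the lamellae reads. FB_lamellae replicate 2 was the highest of the lamellae libraries, and still below every cap library. The log2 fold changes of the 13 genes lay between -3.87 and -1.59. Without overlap stood 12 of them, against 8.62% of tested genes downward, though the calls were chosen on these same libraries. In 2 of the 13 fewer than 90% of reads mapped uniquely, the lowest at 72.4%, so near-identical copies can share their reads.

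These 13 genes were also abundant in stipe and primordium. They held 16.1 ± 1.98% of reads in YFB_stipe, 14.0 ± 3.83% in P2_stipe, 13.3 ± 0.993% in FB_stipe and 11.4 ± 0.798% in P1 (SD, n = 3 each). They held 9.29 ± 1.72% in FB_cap, 5.47 ± 0.874% in P2_cap, 4.39 ± 0.664% in YFB_cap, 3.69 ± 0.427% in VM and 1.47 ± 1.44% in FB_lamellae (SD, n = 3 each). The lamellae had the lowest mean of the 9 groups, but the 13 genes were chosen as lower there than in the cap.

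The 74 genes that were higher in the lamellae held a smaller share of reads than the lower genes did in the cap. They held 1.21%, 0.785% and 1.96% of reads in FB_lamellae replicates 1, 2 and 3, and 0.281%, 0.425% and 0.481% in FB_cap replicates 1, 2 and 3. A mean of 1000 CPM was reached in the lamellae by 3 of the 74, which held 0.567 ± 0.319% of reads there against 0.185 ± 0.0606% in the cap (SD, n = 3 each). By the higher of both tissue means, 13 of the 253 lower and 108 of the 13569 tested genes reached that level. Per gene the directions were alike, with a median of that higher mean of 40.3 CPM for higher, 40 CPM for lower and 24.7 CPM for tested genes. The 74 higher genes were longer gene models, with a median of 1644.5 bases (middle range 1155 to 2261.5), against 1325 for the lower genes and 1307 for all tested genes. Gene models under 600 bases made up 4.05% of the higher, 6.72% of the lower and 9.3% of the tested genes.

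Calls were made at all levels of expression. In 10 equal bins of the tested genes by mean level over all libraries, the called share ran from 1.25% in the lowest bin, with a median of 0.927 CPM, to 3.54% in the fifth and 3.17% in the highest. In that highest bin 39 of 43 calls were lower in the lamellae.

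Across development the 74 higher genes stood at their peak in the lamellae and next highest in the young cap. Their median log2(CPM + 1), taken over group means, was 5.13 in FB_lamellae, 4.66 in YFB_cap and 4.21 in P2_cap, and 3.73 to 3.93 in the other 6 groups. The 3 lamellae libraries stood at 5.23, 4.61 and 5.63, and the 3 YFB_cap libraries at 4.47, 4.69 and 4.88, so these groups overlapped. The mature cap libraries stood at 3.54, 3.69 and 4.24. Gene by gene, YFB_cap lay nearer to FB_lamellae than to FB_cap in 44 of the 74 (59.5%), about the 58.8% of all tested genes. Over all genes the root mean square difference from YFB_cap was 0.988 ± 0.218 for FB_cap and 0.95 ± 0.159 for FB_lamellae libraries (SD, n = 3 each, exact permutation p = 0.9). By group mean, 50 of the 74 genes (67.6%, against 11.6% of tested genes) were highest in FB_lamellae, on which they were chosen, and 16 (21.6% against 14.1%) in YFB_cap.

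The 253 lower genes had their lowest level in the lamellae, on which they were chosen, and the next lowest in the young cap. Their median was 5.16 in FB_cap, 4.93 in VM, 4.81 in YFB_stipe, 4.79 in P1, 4.73 in P2_stipe and 4.53 in FB_stipe, and was 4.21 in P2_cap, 3.89 in YFB_cap and 3.4 in FB_lamellae. The FB_cap libraries stood at 4.76, 4.77 and 5.75 and the FB_lamellae libraries at 3.31, 3.62 and 3.04. Gene by gene, YFB_cap lay nearer to FB_lamellae than to FB_cap in 162 of the 253 (64%), against 58.8% of tested genes. By group mean, 67 of them (26.5%, against 7.13% of tested genes) were highest in FB_cap, on which they were chosen. In VM 62 were highest (24.5% against 23.3%), in FB_stipe 48 (19% against 13.4%) and in YFB_stipe 34 (13.4% against 9.37%).

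**Figure D4:**
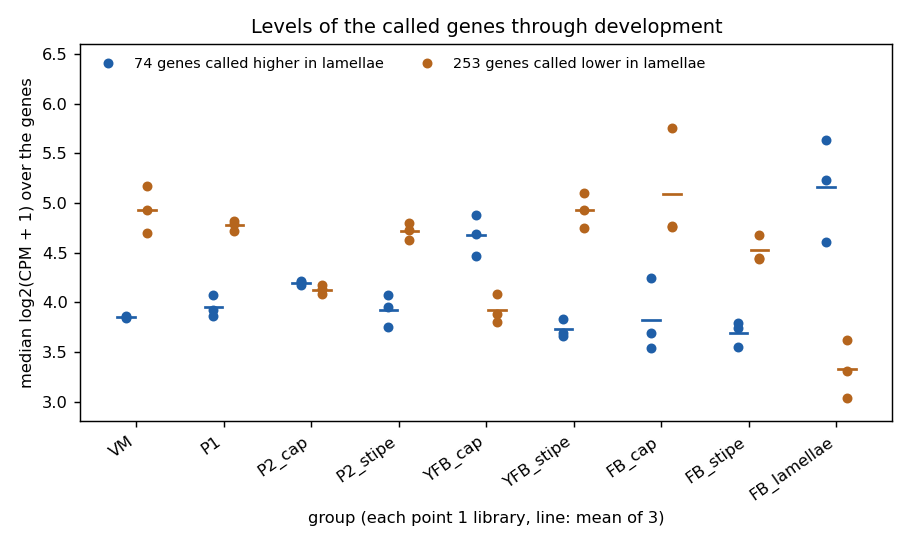
Median log2(CPM + 1) over the 74 higher and the 253 lower genes in each of the 27 libraries, by group, with a line at the mean of 3 libraries. The higher genes are at 4.61 to 5.63 in FB_lamellae and 4.47 to 4.88 in YFB_cap, and the lower genes are at 3.04 to 3.62 in FB_lamellae and 3.80 to 4.08 in YFB_cap.

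Lists made from libraries outside the comparison gave the tissues of the series a place in it. A young cap list of 930 genes was higher and a young stipe list of 1569 genes was lower in YFB_cap than in YFB_stipe under the same call rule (6.85% and 11.6% of tested genes). A mycelium list of 1097 genes was higher and a primordium list of 937 genes was lower in VM than in P1 (8.08% and 6.91%). These comparisons used 12 other libraries, although the estimate of the spread was common to all.

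Genes of the young cap were more often higher, and genes of the young stipe more often lower, in the mature lamellae than in the mature cap. Of the young cap list 42 genes (4.52%) were called higher and 1 lower in FB_lamellae, against 0.545% and 1.86% of all tested genes, with a median log2 fold change of 0.51 against -0.01 over all tested genes. They made up 56.8% of the 74 higher genes. Of the young stipe list 108 genes (6.88%, against 1.86% of tested genes) were called lower and 2 higher, with a median of -0.49, and they made up 42.7% of the 253 lower genes. Libraries separated fully upward in 14.5% of the young cap list and downward in 21.5% of the young stipe list, against 4.33% and 8.62% of tested genes.

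As a share of reads the contrast was plain in every library. The young stipe list took 14.6%, 14.8% and 13.6% of reads in FB_cap replicates 1, 2 and 3 and 6.04%, 8.12% and 3.59% in FB_lamellae replicates 1, 2 and 3. The cap libraries all lay above the lamellae libraries (exact two-sided permutation p = 0.1, n = 3 each). The abundant genes described above carried most of this. Without the 9 of them in the list, its share was 7.39 ± 0.963% in FB_cap and 4.90 ± 1.56% in FB_lamellae (SD, n = 3 each, exact permutation p = 0.1). The young cap list took 7.31%, 6.2% and 6.45% of reads in the cap libraries and 8.85%, 8.26% and 12.9% in the lamellae libraries, again without overlap.

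The shift of the whole lists depended on the libraries paired. Over the 9 pairs of a lamellae and a cap library, the median difference of the young cap list in log2(CPM + 1) ran from -0.02 to 1.27 and that of the young stipe list from -0.91 to 0.04. It was -0.02 and 0.04 on the flowcell of FB_cap replicate 1 and FB_lamellae replicate 2, and 0.69 and -0.54 on that of FB_cap replicate 2 and FB_lamellae replicate 1. Without FB_lamellae replicate 3 the medians of the log2 fold change were 0.25 and -0.38, and 0 and 16 genes of the lists were called higher and lower. Without FB_cap replicate 2 the median of the young stipe list was -0.28. The young cap list had 10 higher calls without FB_cap replicate 1 and 127 without FB_lamellae replicate 2, and the young stipe list had 67 lower calls without FB_cap replicate 3 and 172 without FB_lamellae replicate 2.

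The mycelium and primordium lists had medians nearer to that of all genes, and more of their genes were called lower than of all tested genes (1.86%). Of the mycelium list 44 genes (4.01%) were called lower and 4 higher (0.365%, against 0.545%), with a median log2 fold change of -0.22 that was 0.07 without FB_cap replicate 2. Its highest shares of reads stood 1 in each tissue, 7.80% and 7.63% in FB_cap replicate 2 and FB_lamellae replicate 1, which share a flowcell with VM libraries, and 3.14% to 5.99% in the other 4. Without FB_cap replicate 2, 35 of its genes were called higher. The part of this in the differences between the tissues was not tested. Without those 2 libraries 438 genes were called, 200 higher and 238 lower. The primordium list took 16.2%, 10.8% and 14.7% of reads in FB_cap replicates 1, 2 and 3 and 6.08%, 10.5% and 10.9% in FB_lamellae replicates 1, 2 and 3, so the tissues overlapped (exact two-sided permutation p = 0.2, n = 3 each). Of its genes 44 (4.70%) were called lower and 10 (1.07%) higher, with a median of -0.06 that was 0.01 without FB_cap replicate 1 and 0.04 without FB_lamellae replicate 1. The lower calls of the mycelium list numbered 25 without FB_cap replicate 3 and 4 without FB_lamellae replicate 3. Those of the primordium list numbered 76 without FB_cap replicate 2 or FB_lamellae replicate 2, 22 without FB_lamellae replicate 1 and 6 without FB_lamellae replicate 3. In no list were 36.5% of the higher, 35.2% of the lower and 70.3% of the tested genes.

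Of the called genes, 4 are named, 2 per direction, from the calls without overlap and with at least 20 CPM in the higher mean, ordered by how many of the 6 fits that each left out 1 library kept the call. Of the 37 higher genes of that kind 1 was called in all 6 fits, and the next named was called in 5. Of the 137 lower genes 18 were called in all 6, and the 2 named are those with the largest folds among them. Lenti6_1_561202, a gene model of 339 bases, was lower in the lamellae. It stood at 1350, 994 and 569 CPM in FB_cap replicates 1, 2 and 3 and at 70.7, 72.3 and 57.2 CPM in FB_lamellae replicates 1, 2 and 3. The lamellae libraries were tight and every cap library was far above them, and FB_lamellae over FB_cap was -3.86 ± 0.60 on the log2 scale (SE, edgeR adjusted p = 0.00261). On the shared flowcells the differences of log2(CPM + 1) were -4.20 and -3.79. Per length, as mean TPM, it ranked 15 in the cap with 3280 and 726 in the lamellae with 266. It reached 4240 ± 843 CPM in P1, 4010 ± 1770 CPM in VM and 3980 ± 2590 CPM in YFB_stipe, and had 179 ± 109 CPM in FB_stipe (SD, n = 3 each). The lamellae were thus the lowest group. Its call was lost only when the 6 libraries were fitted alone with edgeR (adjusted p = 0.555) or limma-voom (adjusted p = 0.189), at log2 fold changes of -3.84 and -3.78.

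Lenti6_1_508264, of 732 bases, stood at 14.9, 11.9 and 480 CPM in FB_cap replicates 1, 2 and 3 and at 3.98, 2.63 and 1.55 CPM in FB_lamellae replicates 1, 2 and 3. The groups did not overlap, but FB_cap replicate 3 was far above the other cap libraries. The difference, -5.94 ± 0.99 in log2 fold (SE, adjusted p = 0.00424 with edgeR), was -2.28 without that library (edgeR adjusted p = 0.00926), and -1.99, no longer called, on the shared flowcells alone (adjusted p = 0.0798). The call was also lost in the 6 libraries alone with edgeR (-5.93, adjusted p = 0.646) and limma-voom (-4.12, adjusted p = 0.723) and in the weighted limma-voom fit (-4.16, adjusted p = 0.2). DESeq2 gave this gene no adjusted p in the 6 libraries alone, so it was not called there. Outside the cap it was high in VM, at 121 ± 66.3 CPM, and stood at 1.39 to 2.13 CPM in the means of the remaining 6 groups.

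Lenti6_1_497378, of 1326 bases, was higher in the lamellae, at 544, 186 and 148 CPM in FB_lamellae replicates 1, 2 and 3. In FB_cap replicates 1, 2 and 3 it stood at 12.4, 70.2 and 75.2 CPM, so the groups did not overlap although both were wide. The log2 fold change was 2.47 ± 0.48 (SE, edgeR adjusted p = 0.0117) and 1.67 without FB_lamellae replicate 1 (adjusted p = 0.0484). In the 6 libraries alone it was called by none of the tools, with adjusted p = 0.646 in edgeR, 0.723 in limma-voom and 0.0859 in DESeq2. The lamellae had its highest group mean, 293 ± 218 CPM, and FB_stipe its lowest, 5.44 ± 0.726 CPM (SD, n = 3 each). The young cap had 33.1 ± 9.20 CPM, so this gene did not share the high young cap level of the group of higher genes.

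Lenti6_1_571497, of 986 bases, did share it. It stood at 317, 88.4 and 515 CPM in FB_lamellae replicates 1, 2 and 3, and at 25.6, 87.5 and 71.3 CPM in FB_cap replicates 1, 2 and 3. The lowest lamellae library lay just above the highest cap library. The log2 fold change was 2.32 ± 0.48 (SE, edgeR adjusted p = 0.016), and 1.72 without FB_lamellae replicate 3 (adjusted p = 0.111), when it was not called. It was also not called on the shared flowcells alone (1.83, adjusted p = 0.102), in the weighted limma-voom fit (adjusted p = 0.207), or in the 6 libraries alone with edgeR (0.646), limma-voom (0.723) or DESeq2 (adjusted p = 0.0834). It had 230 ± 111 CPM in YFB_cap, 103 ± 10.3 CPM in P2_cap and 98.8 ± 10.5 CPM in VM (SD, n = 3 each). Lower were P1 with 32.5 ± 4.02 CPM, P2_stipe with 31.4 ± 12.5 CPM, YFB_stipe with 17.6 ± 3.89 CPM and FB_stipe with 10.1 ± 3.09 CPM (SD, n = 3 each). The gene is a member of both the young cap list and the mycelium list.

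**Figure D5:**
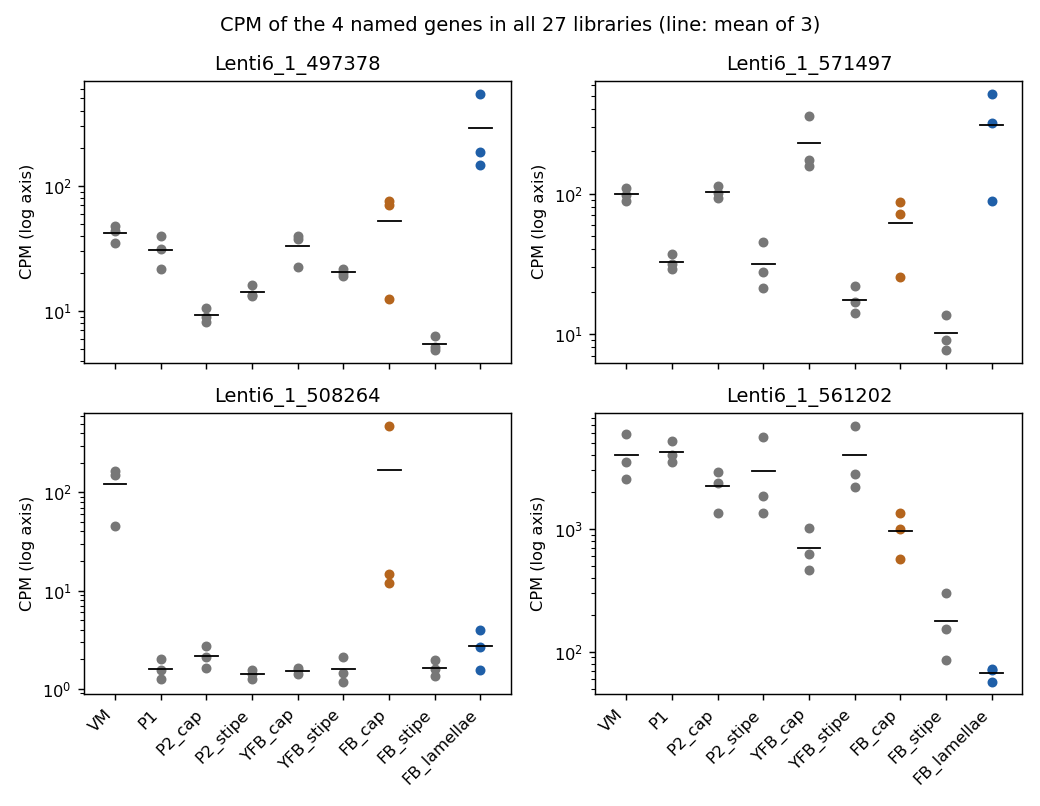
CPM on a log axis of the 4 named genes in each of the 27 libraries by group, with a line at the mean of 3 libraries, FB_cap in brown and FB_lamellae in blue. In each panel the 3 lamellae points lie on 1 side of the 3 cap points, and FB_cap replicate 3 stands apart at 480 CPM for Lenti6_1_508264.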

How the data were processed

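PolyA RNA libraries were made with an Illumina TruSeq RNA v2 kit from 50 to 75 mg of frozen tissue, per the labels' protocols. The authors deposited, per the file headers, a count of all reads and of uniquely mapped reads per gene model, TPM and gene length for each library, and a series table of log2 RPKM. The submitters' processing notes name R 3.0.2, edgeR 3.4.2 and limma 3.18.13. The aligner is not given in the sources used here, nor whether counting used strand, so overlapping and antisense genes cannot be told apart. The series table had 0 columns of other samples.

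Total counts of all 27 libraries were filtered (filterByExpr, minimum count 10), scaled by TMM and fitted with 9 group means by edgeR 4.0.16 in R 4.3.3 (limma 3.58.1 and DESeq2 1.42.0 as alternatives), with Benjamini-Hochberg adjustment over all 13569 genes tested. Calls needed a fold of at least 2 with an adjusted p below 0.05. Each standard error was the log2 fold change divided by the square root of its F value. CPM values are TMM-scaled, with 1 added before logs. Shares of reads use unscaled counts. The functions were tested on simulated data with the same spread per gene in all groups. That test did not cover the wider spread of FB_cap and FB_lamellae. Libraries of a tissue differed beyond sampling noise (chi-square per degree of freedom at least 177).

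Named genes were the first 2 per direction among calls without overlap and at least 20 CPM in the higher mean, ordered by how many of 6 leave-one-out fits kept the call and then by fold. Of 15665 genes in the RefSeq table (another assembly), 0 matched the identifiers, so no names, positions or sequences are given. Comparison, lists and rules were chosen with earlier results of these data known.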

Additional observations from a re-analysis of the deposited data

How the results depend on the processing

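The number of genes called moved more with the choice of libraries and of the spread than with scaling or filtering. It was 327 (74 higher, 253 lower) and stayed within 1.5 times of that with RLE scaling, no filter, unique reads, no fold cutoff and, chosen after seeing the data, the authors' log2 RPKM values with limma. It was 0 (0 higher, 0 lower) in the 6 libraries alone with edgeR or limma-voom and 88 (10 higher, 78 lower) with DESeq2 there. DESeq2 on all libraries gave 643 (215 higher, 428 lower), limma-voom 36 higher, and limma-voom with a weight per group 22 (2 higher, 20 lower). The fits of the 6 libraries with limma-voom and DESeq2 and the weighted fit were chosen after seeing the data. Flowcell as a covariate gave 194 (41 higher, 153 lower), the shared flowcells alone 67 (22 higher, 45 lower), and leaving out the libraries of the flowcell shared with VM 200 higher. Leaving out single libraries gave 38 to 702 calls, 12 to 259 higher and 26 to 443 lower. With the replicate number as a replicate block 216 genes were called, 41 of them higher. Whether the numbers pair the libraries cannot be told from the labels. Deviations from the group means correlated at -0.392, 0.432 and 0.388 for numbers 1, 2 and 3. Between cap and lamellae libraries of unlike numbers they correlated at -0.579 to 0.32. The cause of the differences between settings was not tested. The share of lower genes among the calls was 54.3% to 94.5% in the settings that called any. A pseudocount of 5 lowered the median SD to 0.292 in FB_cap and 0.287 in FB_lamellae. List medians moved by less than the median SD of single genes between libraries, a wide limit for a median over a whole list. The median of the young cap list was 0.509, and 0.254 without FB_lamellae replicate 3. That of the mycelium list was -0.215, and 0.07 without FB_cap replicate 2. The median of all genes stayed near 0, where scaling sets it.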
